A study of Mus musculus with 12 samples.

Results

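Complex I, the NADH dehydrogenase of the inner mitochondrial membrane, passes electrons from NADH to ubiquinone and pumps protons that drive ATP synthesis. A small set of core subunits carries the redox centres and the proton channels, and accessory subunits surround them. Leydig cells make testosterone, and their mitochondria import cholesterol and carry out the opening step of steroid synthesis. The transcripts described here are those of 34 nuclear-encoded subunits, chosen as the non-control array probes whose gene name in the scanner files is that of a subunit. Of the 34 subunits, 33 had a probe under that name, with 45 probes among 41174 on the array. All 33 passed the signal filter, on 43 of the 45 probes, and belonged to the 15830 genes tested. Ndufv3 had no probe under that name. A further 3 probes, filed under the older name 1500032D16Rik, carry its RefSeq accession and were kept apart.

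The samples were laser-captured Leydig cells of 21-week-old male C57BL/6J mice. Mice received di-(2-ethylhexyl)-phthalate (DEHP), a plasticizer, at 200 mg/kg/day in corn oil by gavage for 21 days, or corn oil alone as vehicle. The labels describe 4 mice per exposure group, of which DEHP mice 1 and 4 and vehicle mice 1, 2 and 4 are analysed here. Each of the 6 pairs of a DEHP and a vehicle mouse was hybridised as a dye swap, which gave 12 two-colour arrays on 3 slides, and the mouse is the replicate. RNA from the captured cells of each mouse was amplified for 2 rounds before labelling, so a transcript level here has passed through that amplification.

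All 15 listed Leydig cell markers passed the signal filter, and so did all 21 listed spermatid markers. Across the 12 arrays, 45.4% to 54.4% of red spots and 35.5% to 46.1% of green spots were well above background. No spot of a complex I probe was left out as an outlier. The level of a transcript is given throughout on the log2 scale, set against the average over the 5 mice, after loess normalization of each array. A level of 0 is that average, and a difference of 1 is a doubling.

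Among the 60-base probes behind these levels, those of Ndufb8, Ndufb4 and Ndufa6 are shown because these subunits had the lowest difference, the smallest unadjusted p and the highest difference between DEHP and vehicle mice. Those of Ndufa7, Ndufc1 and Ndufs6 are shown because their genes have probes that differ. The Ndufb8 probe (chr19:44444238-44446582, mm7, minus strand) and the Ndufb4 probe (chr16:37356088-37357441, mm7, minus strand) span an intron. The Ndufa6 probe lies at chr15:82435409-82435468 (mm7, minus strand), the Ndufa7 probe shown at chr17:31898580-31899559 (plus strand, across an intron) and the Ndufc1 probe shown at chr3:51531904-51532695 (minus strand, across an intron). The Ndufs6 probes lie at chr13:70251839-70251898, chr13:70251833-70251892 and chr13:70251861-70258918 (minus strand, the last across an intron), and capitals mark the 33 bases that all 3 share. All are printed 5′ to 3′ as in the scanner files.
Ndufb8: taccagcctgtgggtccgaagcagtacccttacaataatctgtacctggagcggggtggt
Ndufb4: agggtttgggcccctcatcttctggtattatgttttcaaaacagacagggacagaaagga
Ndufa6: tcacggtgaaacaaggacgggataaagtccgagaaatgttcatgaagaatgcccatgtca
Ndufa7, second probe: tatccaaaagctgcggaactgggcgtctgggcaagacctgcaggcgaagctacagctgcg
Ndufc1, second probe: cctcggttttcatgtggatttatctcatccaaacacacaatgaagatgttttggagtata
Ndufs6, probe used: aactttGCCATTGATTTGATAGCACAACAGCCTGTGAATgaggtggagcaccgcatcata
Ndufs6, second probe: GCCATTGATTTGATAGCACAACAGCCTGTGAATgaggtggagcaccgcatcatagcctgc
Ndufs6, probe across an intron: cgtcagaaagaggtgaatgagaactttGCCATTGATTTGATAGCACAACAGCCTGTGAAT

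The main comparison asked whether DEHP changed transcript levels in Leydig cells. No complex I subunit passed the test between DEHP and vehicle mice, and no gene on the array did (0% of 15830 genes, limma with Benjamini-Hochberg adjustment, smallest adjusted p = 1). At an unadjusted p under 0.05 there were 0 of 33 subunits, beside 0.859% of all genes, or 136 genes. The median difference over the 33 subunits was −0.11, beside −0.01 over all genes. It was below 0 for 24 subunits and above 0 for 9. That is 72.7% below 0, beside 51.7% of all genes. Without DEHP mouse 4, under loess, the median was 0.12 and 28 of 33 subunits lay above 0. Under loess the sign of the median thus rests on that mouse. With each array centred on its median in place of loess, the median difference over the subunits was −0.07. No mouse was left out under that centring. In captured tissue, fewer cells of a type and less RNA per cell cannot be told apart.

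The 95% intervals were wide. They lay within −1 to 1 for 22 of 33 subunits (66.7%, beside 61.6% of all genes), so for the other 11 a difference of 1 in at least 1 direction lay inside the interval. The lowest difference was that of Ndufb8 at −0.54, with an interval of −1.57 to 0.50. Ndufb4 had the smallest unadjusted p of the 33, 0.181 in the limma fit across all genes, at a difference of −0.53 and an interval of −1.39 to 0.33. The highest was that of Ndufa6 at 0.29, with an interval of −0.51 to 1.098. Each interval holds 0.

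**Figure D1:**
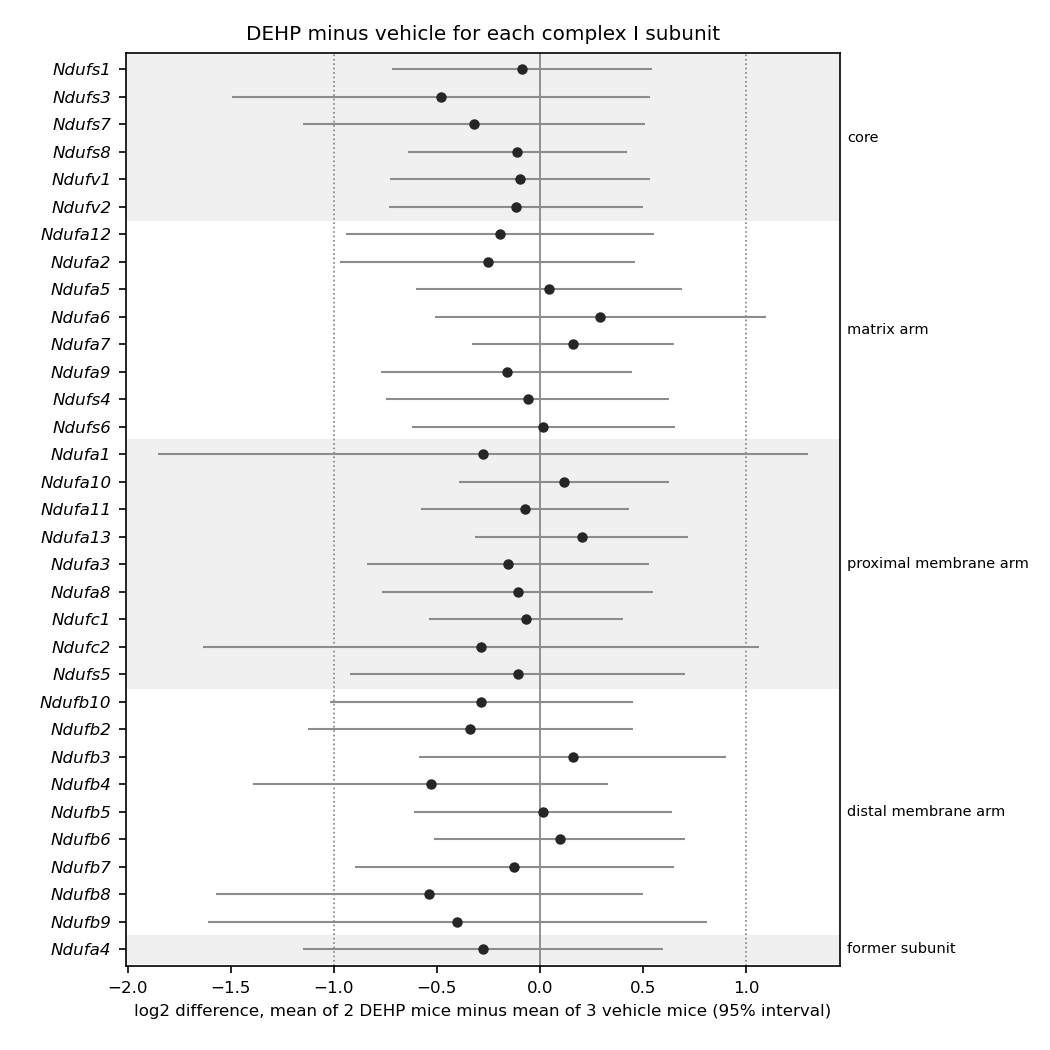
Log2 difference between the mean of the 2 DEHP mice and the mean of the 3 vehicle mice (horizontal axis) for each of 33 complex I subunits, grouped by their place in the complex; points are differences and bars are 95% intervals from limma. Every bar crosses 0, from Ndufb8 at −0.54 to Ndufa6 at 0.29, and dotted lines mark −1 and 1.

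The 6 core subunits measured were all of the matrix arm, which takes electrons from NADH to ubiquinone. Their differences ran from −0.48 to −0.09, all below 0 under loess, with a median of −0.11 and 0 of 6 called. Ndufv1 binds NADH and the flavin cofactor. Its levels were −0.03 and −0.09 in DEHP mice 1 and 4, against −0.33, 0.32 and 0.12 in vehicle mice 1, 2 and 4. Ndufv2, which carries an iron-sulfur cluster beside it, had 0.04 and −0.18 in the DEHP mice, against 0.23, −0.30 and 0.21 in the vehicle mice. For both subunits the vehicle mice spanned the DEHP mice.

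Ndufs1, the largest subunit and a carrier of several iron-sulfur clusters, had levels of 0.00 and −0.11 in DEHP mice 1 and 4, against −0.34, 0.13 and 0.31 in vehicle mice 1, 2 and 4. Again both DEHP mice lay inside the vehicle range. Ndufs3, a subunit of the part of the arm that reaches toward ubiquinone, stood at 0.37 and −0.94 in the DEHP mice, against −0.03, 0.28 and 0.32 in the vehicle mice. Here the DEHP mice held both the highest and the lowest level. Ndufs7, which carries the last cluster before ubiquinone, had 0.27 and −0.65 in the DEHP mice, against −0.16, 0.26 and 0.29 in the vehicle mice. Ndufs8, a carrier of 2 clusters, had 0.09 and −0.22 in the DEHP mice, against −0.11, 0.04 and 0.20 in the vehicle mice. DEHP mouse 4 was the lowest of the 5 mice for Ndufs3, Ndufs7 and Ndufs8. The Ndufs8 probe was dim, at a mean log2 intensity of 6.48. It was above background on a share of 0.583 of arrays for DEHP and 0.75 for vehicle RNA. With the scanner software's processed signals, vehicle mouse 1 was lowest for Ndufs8, at −0.76 beside −0.45 in DEHP mouse 4.

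Accessory subunits surround the core on both arms. Over 8 measured in the matrix arm, differences between DEHP and vehicle mice ran from −0.25 to 0.29 with a median of −0.02. In the proximal membrane arm, next to the matrix arm, 9 subunits ran from −0.29 to 0.20 with a median of −0.11. In the distal membrane arm, 9 subunits ran from −0.54 to 0.16 with a median of −0.28. In none of these sets was a subunit called.

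Ndufa7, a matrix arm accessory subunit, was the only one whose DEHP and vehicle mice did not overlap (1 of 33, or 3.03%, beside 9.17% of all genes). It counts as higher after DEHP (1 of 33, beside 3.95% of all genes), and 0 of 33 subunits were lower without overlap, beside 5.22%. Its levels were 0.13 and 0.06 in DEHP mice 1 and 4, against 0.05, −0.24 and −0.01 in vehicle mice 1, 2 and 4. DEHP mouse 4 and vehicle mouse 1 were nearly level, and the difference of 0.16 had a standard error of 0.20. The second Ndufa7 probe, printed above, gave 0.16 and −0.10 in the DEHP mice, against 0.01, −0.25 and 0.18 in the vehicle mice. By that probe the groups overlapped. They also overlapped by the first probe under median centring in place of loess, at −0.27 and 0.53 in the DEHP mice, against 0.09, −0.49 and 0.14 in the vehicle mice.

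Ndufa4, long listed as a complex I subunit and now assigned to cytochrome c oxidase, had levels of 0.14 and −0.47 in DEHP mice 1 and 4, against −0.31, 0.01 and 0.63 in vehicle mice 1, 2 and 4. Its difference was −0.28, with an interval of −1.15 to 0.60. The groups overlapped, with DEHP mouse 4 lowest and vehicle mouse 4 highest.

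**Figure D2:**
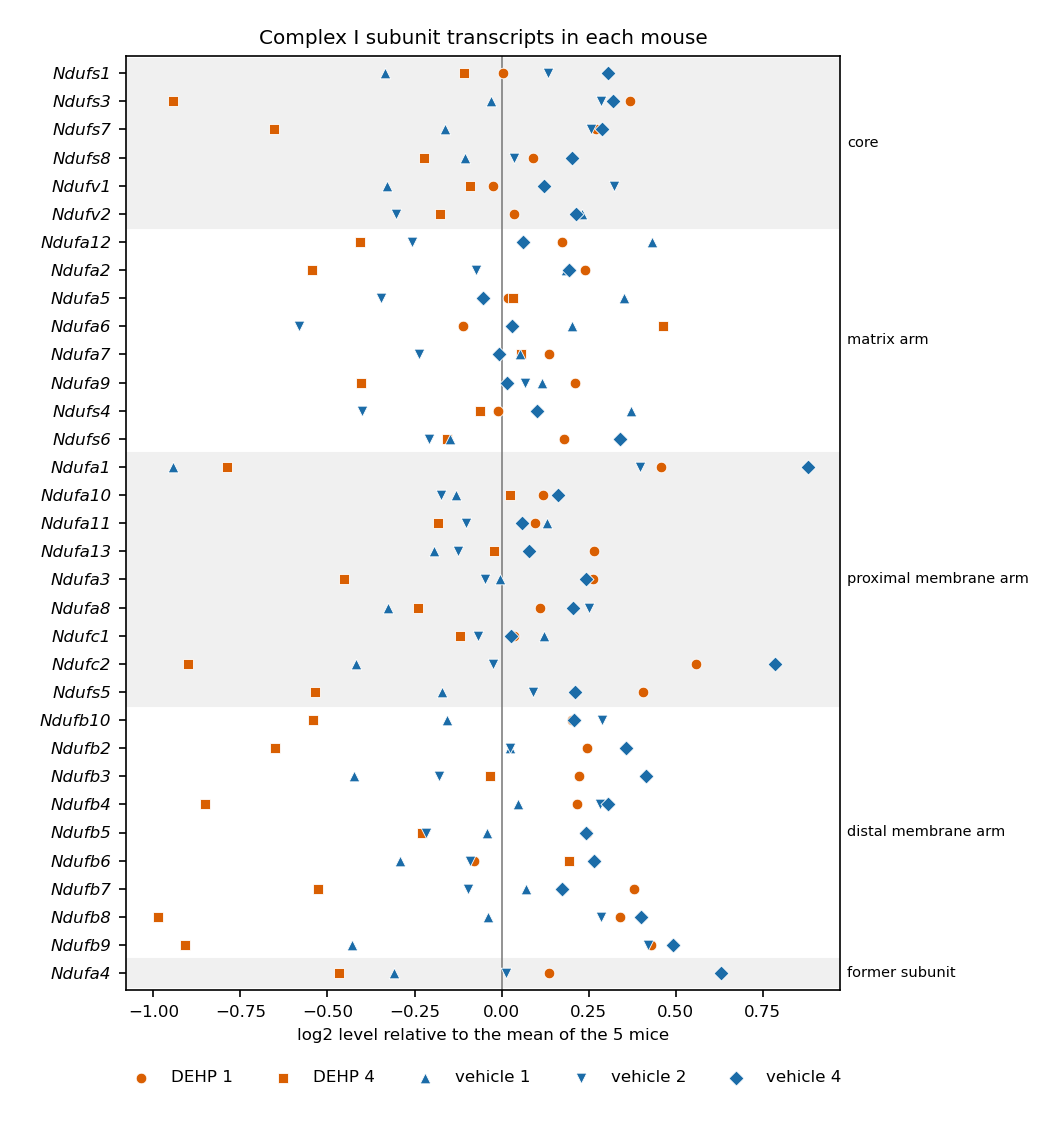
Log2 level of each of 33 complex I subunit transcripts in each mouse (horizontal axis), set against the average over the 5 mice after loess normalization; orange marks are DEHP mice, blue marks vehicle mice, and rows are grouped by place in the complex. DEHP mouse 4 (orange squares) is the lowest mark for 19 subunits, an order that changes under median centring, and vehicle mouse 4 (blue diamonds) is the highest for 14.

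The 2 DEHP mice lay farther apart than the group means did. Under loess the median level over the 33 subunits was 0.20 and −0.24 in DEHP mice 1 and 4, against −0.04, −0.05 and 0.21 in vehicle mice 1, 2 and 4. The DEHP mice enclosed most of the vehicle range. The median SD of a subunit was 0.405 between DEHP mice and 0.237 between vehicle mice. The SD between DEHP mice was the larger for 19 of 33 subunits (57.6%), so the rest did not follow the medians. The residual SD of the arrays around the mouse levels had a median of 0.0738. The array SD was below the SD between DEHP mice for 29 of 33 subunits, and below that between vehicle mice for 29 of 33.

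Arrays of opposite dye gave like values. For the pair of DEHP mouse 4 and vehicle mouse 4, the median log2 ratio over the subunits, DEHP over vehicle, was −0.47 with DEHP RNA in Cy5 and −0.54 with it in Cy3. For DEHP mouse 1 and vehicle mouse 1 it was 0.26 and 0.24. For DEHP mouse 1 and vehicle mouse 4 it was 0.04 and −0.08, and there the arrays correlated least over the subunits (r = 0.48, n = 33 subunits on the same extracts, against 0.81 to 0.96 in the other 5 pairs). The median absolute gap between the arrays of a pair ran from 0.0711 to 0.166, widest for DEHP mouse 1 and vehicle mouse 1. The differences between mice of a group were therefore tested too. These tests compare RNA extracts of single mice, not conditions, since each mouse has 1 extract, and they share the arrays of the other group.

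Between the DEHP mice, under loess, 28 of 33 subunits were called (84.8%, beside 76.7% of all genes, limma on 6 dye-swap averages with Benjamini-Hochberg adjustment). DEHP mouse 4 was lower for 26 of these and higher for 2, beside 40.5% of all genes called lower and 36.2% called higher. The median difference over the subunits was −0.47, beside −0.05 over all genes. With each array centred on its median in place of loess, the direction turned: 20 subunits were called higher in DEHP mouse 4 and 6 lower, beside 60.2% and 21% of all genes. Under that centring the median of all genes was itself 0.30, and that of the subunits was 0.27. The subunits therefore stood 0.43 below the median gene under loess and 0.03 below it under median centring.

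Signal strength moved with the choice of normalization. Across all genes the difference between DEHP mice correlated with mean log2 intensity at r = −0.05 under loess and r = 0.32 under median centring, a description with no test. Across the 33 subunits it correlated at r = −0.51 under loess and r = 0.14 under median centring, so under loess the brighter subunits tended to lie lower in DEHP mouse 4. The part of intensity in the subunits' differences was not tested. Among the 1036 genes at least as bright as the median subunit, a cut chosen after the values were seen, the median difference was −0.02 under loess and 1.04 under median centring. For the 17 subunits of that brightness it was −0.90 and 0.20. The genes were not matched to the subunits one by one in brightness. With the scanner software's processed signals, the median difference between DEHP mice was −0.58 over the subunits, beside −0.0006 over all genes. With no background subtraction it was −0.45, beside −0.06. In the authors' deposited table, 14 of the 19 subunits with values in every mouse were lower in DEHP mouse 4. Their median difference was −0.26, beside −0.02 over all genes there.

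**Figure D3:**
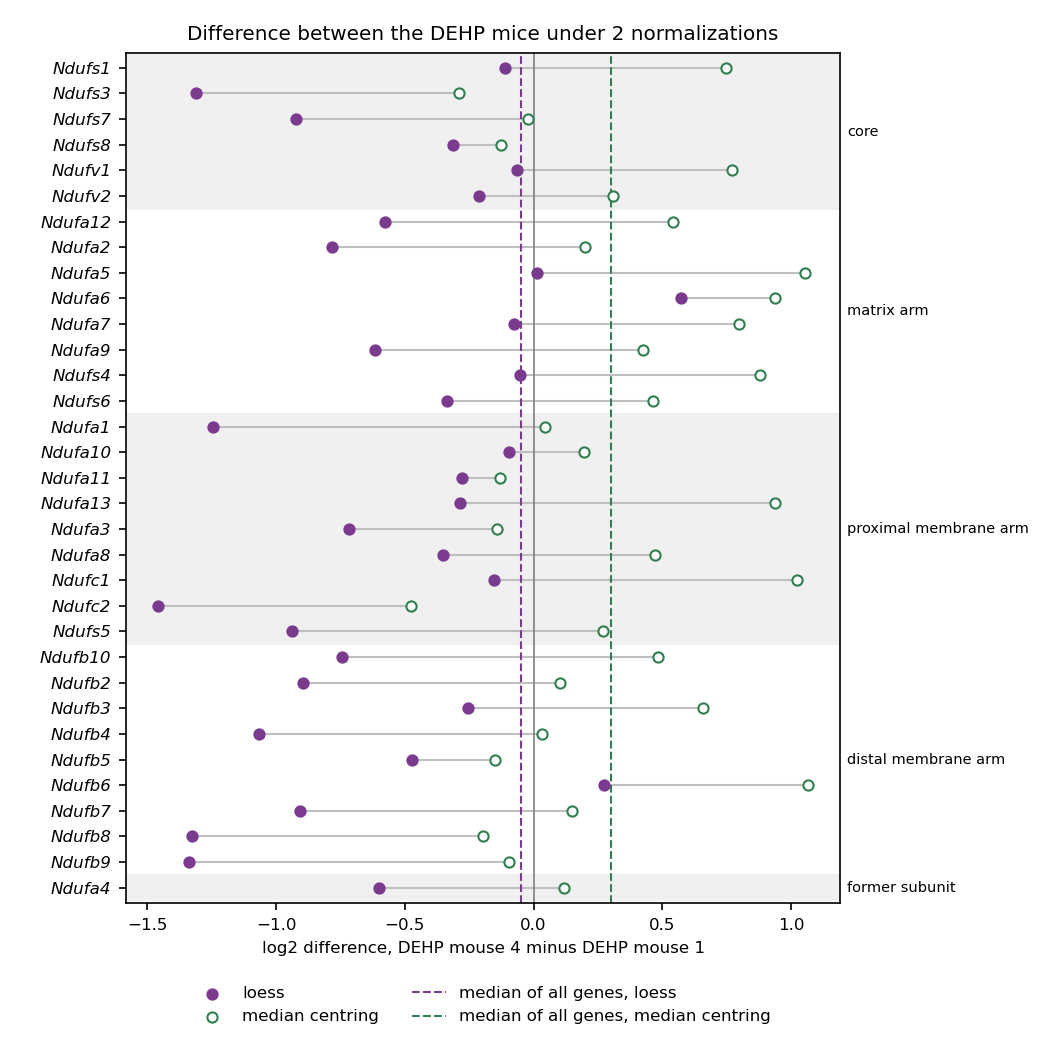
Log2 difference of each complex I subunit, DEHP mouse 4 minus DEHP mouse 1 (horizontal axis), after loess (filled) and after median centring of each array (open), grouped by place in the complex; dashed lines are the medians of all genes, −0.05 and 0.30. Under loess 30 of 33 subunits lie below 0, whereas under median centring 24 of 33 lie above it.

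The named subunits ranked as follows under loess. Ndufc2, of the proximal membrane arm, had levels of −0.90 in DEHP mouse 4 and 0.56 in DEHP mouse 1, beside −0.42, −0.02 and 0.79 in vehicle mice 1, 2 and 4. The difference between DEHP mice was −1.46 (SE 0.0353, adjusted p = 1.36e-05), and vehicle mouse 4 lay above both. Ndufb9, which binds an acyl carrier protein in the membrane arm, had −0.91 in DEHP mouse 4 and 0.43 in DEHP mouse 1, beside −0.43, 0.42 and 0.49 in the vehicle mice. Its difference was −1.34 (SE 0.0397, adjusted p = 1.47e-05). Ndufb8, of the distal membrane arm, had −0.99 in DEHP mouse 4 and 0.34 in DEHP mouse 1, beside −0.04, 0.28 and 0.40 in the vehicle mice, a difference of −1.32 (SE 0.0356, adjusted p = 1.39e-05). These 3 were also lower in DEHP mouse 4 under median centring, as the plot of both normalizations shows, at smaller differences.

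At the other end was Ndufa6, a matrix arm subunit that also binds an acyl carrier protein. It had 0.46 in DEHP mouse 4 and −0.11 in DEHP mouse 1, beside 0.20, −0.58 and 0.03 in vehicle mice 1, 2 and 4. The difference between DEHP mice was 0.57 (SE 0.0453, adjusted p = 2.16e-04), and it was the only subunit highest in DEHP mouse 4 under loess. Ndufb6, of the distal membrane arm, had 0.19 in DEHP mouse 4 and −0.08 in DEHP mouse 1, beside −0.29, −0.09 and 0.27 in the vehicle mice, a difference of 0.27 (adjusted p = 0.00222). Ndufa5, of the matrix arm, had 0.03 in DEHP mouse 4 and 0.02 in DEHP mouse 1, beside 0.35, −0.35 and −0.06 in the vehicle mice. It did not pass the test between DEHP mice (adjusted p = 0.782).

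By place in the complex, 8 of 9 distal membrane arm subunits were called lower in DEHP mouse 4 under loess, with a median difference of −0.90. The counts were 8 of 9 in the proximal membrane arm (median −0.35), 4 of 8 among accessory subunits of the matrix arm (median −0.21) and 5 of 6 among core subunits (median −0.26). Of all genes, 40.5% were called lower, with a median difference of −0.05. Under median centring the medians of these sets were above 0, at 0.10, 0.20, 0.67 and 0.14 in the same order. The median of all genes was itself 0.30 there. Only the accessory subunits of the matrix arm had a median above it. No test compared the arms with one another.

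DEHP mouse 4 was the lowest of the 5 mice for 19 of 33 subunits under loess (57.6%, beside 29.9% of all genes), and for 6 under median centring, where the share of all genes was 12.2%. Vehicle mouse 4 was lowest for 0 under either normalization, beside 19.5% of all genes under loess and 6.83% under median centring. It was highest for 14 subunits under loess (42.4%, beside 19.8%), and for 23 under median centring, beside 32.2%. Vehicle mice 1 and 2 were each lowest for 7 subunits under loess (21.2%, beside 19.1% and 20.4% of all genes). Under median centring vehicle mouse 1 was lowest for 5 and vehicle mouse 2 for 17, beside 28.3% and 21.8%. DEHP mouse 1 was lowest for 0 subunits under loess and 5 under median centring, beside 11.2% and 30.9%. It was highest for 9 under loess (27.3%, beside 13.3%) and for 0 under median centring, beside 4.27%. The order of the mice thus depends on the normalization, apart from the place of vehicle mouse 4.

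The high position of vehicle mouse 4 kept its direction under both normalizations. Between vehicle mice 2 and 4, 21 subunits were called under loess (63.6%, beside 56.5% of all genes). Vehicle mouse 2 was lower for 20 of them and higher for 1, beside 28.2% and 28.3%. Under median centring it was lower for 33 and higher for 0, beside 52% and 15.6%. Between vehicle mice 1 and 4, 25 subunits were called (75.8%, beside 68.9%). Vehicle mouse 1 was lower for 21 and higher for 4, beside 35.4% and 33.5%. The counts under median centring were 22 and 4, beside 48.8% and 25%. The 2 comparisons share vehicle mouse 4, so they are not independent. Vehicle mouse 4 was also on a different slide from vehicle mice 1 and 2, so slide and mouse cannot be told apart in either comparison. The part of the slide in these differences was not tested. Ndufa1, a small subunit of the proximal membrane arm, was the widest of these: −0.94 in vehicle mouse 1 against 0.88 in vehicle mouse 4, a difference of −1.82 (SE 0.0599, adjusted p = 4.41e-05).

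Between vehicle mice 1 and 2 the subunits went both ways. Under loess 25 were called (75.8%, beside 70.4% of all genes), 10 higher and 15 lower in vehicle mouse 1, beside 32.6% and 37.7%. Median centring turned this balance to 18 higher and 7 lower, beside 35.8% and 38.7%. Ndufa6 (0.78, SE 0.0554, adjusted p = 1.89e-04), Ndufs4 (0.77, SE 0.046, adjusted p = 1.08e-04), Ndufa5 (0.70, SE 0.0462, adjusted p = 1.52e-04) and Ndufa12 (0.69, SE 0.0427, adjusted p = 1.24e-04) were higher in vehicle mouse 1. All are accessory subunits of the matrix arm, where 6 of 8 were called higher in vehicle mouse 1 and 0 lower under loess. The genes just named were above 0 under median centring too. Core subunits, also of the matrix arm, went mostly the other way under loess, with 1 of 6 called higher and 4 lower. Ndufa1 (−1.34, SE 0.0599, adjusted p = 4.94e-05) and Ndufb9 (−0.85, SE 0.0486, adjusted p = 9.63e-05) were lower in vehicle mouse 1.

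Some subunits had more than 1 probe past the filter, 8 in all. Ndufc1, a membrane arm subunit, differed in sign between its probes under loess, at −0.07 for the probe used and 0.17 for the second one. The second gave −0.04 and 0.25 in DEHP mice 1 and 4, against 0.32, −0.56 and 0.03 in the vehicle mice, and the first stayed within 0.12 of 0 in every mouse. Under median centring the first gave −0.47 and 0.56 in DEHP mice 1 and 4, against 0.30, −0.49 and 0.10 in the vehicle mice. Its difference changed sign there. Ndufs6, a matrix arm subunit with a zinc site, gave 0.02, −0.0025 and 0.12 over its probes, which share the bases in capitals above. Elsewhere the probes of a gene had the same sign. Their DEHP minus vehicle differences were −0.28 and −0.24 for Ndufa1, −0.16 and −0.14 for Ndufa3, −0.07 and −0.13 for Ndufa11, and −0.54 and −0.24 for Ndufb8. They were 0.16 and 0.05 for Ndufa7, and ran from −0.19 to −0.17 for Ndufa12. The second probes of Ndufa3, Ndufa11 and Ndufb8 were near background, so their like sign says little. They were above it on shares of 0.17, 0.33 and 0.42 of arrays for DEHP RNA. For vehicle RNA the shares were 0.67, 0.58 and 0.83. The probes filed as 1500032D16Rik that passed the filter gave −0.12 and −0.16.

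Other genes of the respiratory chain were set beside the subunits, from lists chosen with earlier results of these data known. Of 47 measured genes of complexes II to V, 0 were called and 38 lay below 0, with a median difference of −0.13. Their median level was 0.17 and −0.32 in DEHP mice 1 and 4, against −0.07, 0.03 and 0.31 in vehicle mice 1, 2 and 4. The order of the mice was close to that of the complex I subunits, and under median centring it changed in the same way, to −0.18 and 0.10 in the DEHP mice, against −0.07, −0.24 and 0.45 in the vehicle mice. Cyc1, the cytochrome c1 of complex III, had 0.03 and −0.67 in the DEHP mice, against −0.00374, 0.15 and 0.49 in the vehicle mice. Of 76 mitochondrial ribosomal protein genes, 58 lay below 0, with a median of −0.14, and 0 were called.

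The complex I assembly factors, which build the complex and are not part of it, lay closer to 0 under loess. Of 18 measured, 9 were above 0 and 9 below, with a median of −0.0072. Their median level was −0.02 and −0.03 in DEHP mice 1 and 4, against 0.0042, −0.02 and 0.07 in vehicle mice 1, 2 and 4. DEHP mouse 4 was also the lowest here and vehicle mouse 4 the highest, by small margins. Under loess 9 of 18 were called lower and 7 higher in DEHP mouse 4 than in DEHP mouse 1. The shares of all genes were 40.5% and 36.2%. Under median centring the median was 0.18 in DEHP mouse 4 and −0.28 in DEHP mouse 1, beside 0.16 and −0.21 for the complex I subunits. Single factors went both ways, and no test compared the lists. Ndufaf4 had −0.29 and 0.79 in the DEHP mice, against −0.06, −0.27 and −0.17 in the vehicle mice. Aifm1, the apoptosis-inducing factor, had 0.46 and −0.58 in the DEHP mice, against −0.61, 0.30 and 0.43 in the vehicle mice.

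The 11 measured regulators of respiratory gene transcription had a median level of −0.073 and −0.13 in DEHP mice 1 and 4, against −0.20, 0.19 and 0.02 in vehicle mice 1, 2 and 4. Of these, 5 were called lower and 3 higher in DEHP mouse 4 than in DEHP mouse 1 under loess. The shares of all genes were 40.5% and 36.2%. Under median centring 2 of the 11 regulators lay lower. Tfam, the mitochondrial transcription factor A, was the extreme of the list in both DEHP mice. It had 0.44 and −1.14 in the DEHP mice, against −0.23, 0.43 and 0.50 in the vehicle mice. Of 16 tricarboxylic acid cycle genes, 10 lay below 0, with a median of −0.04. No gene of these lists was called between DEHP and vehicle mice.

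Markers of cell types moved with the mice as well. The median of the 15 Leydig cell markers was 0.68 and −0.75 in DEHP mice 1 and 4, against −0.49, 0.25 and 0.42 in vehicle mice 1, 2 and 4. All 15 were lower in DEHP mouse 4 than in DEHP mouse 1 under loess, and 14 under median centring. The median of the 21 spermatid markers was −0.02 and 0.76 in the DEHP mice, against 0.22, −0.56 and −0.37 in the vehicle mice. DEHP mouse 4 had the highest spermatid marker level under both normalizations. It had the lowest Leydig cell marker level under loess, whereas under median centring vehicle mouse 1 was lowest, at −0.48 beside −0.41 in DEHP mouse 4. Markers of other cell types were also lower in DEHP mouse 4 than in DEHP mouse 1 under loess, with 9 of 12 macrophage, 6 of 7 myoid and 7 of 9 endothelial markers called lower and 0 of each called higher. Of all genes, 40.5% were called lower and 36.2% higher. Under median centring 10 macrophage, 5 myoid and 4 endothelial markers lay lower. Of 13 Sertoli cell markers, 4 were called lower and 3 higher under loess, and of 11 spermatocyte markers 0 and 7. Between groups, 13 of 15 Leydig cell markers lay below 0 and 20 of 21 spermatid markers above it, and 0 of either were called. Their part in the subunits' differences was not tested.

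**Figure D4:**
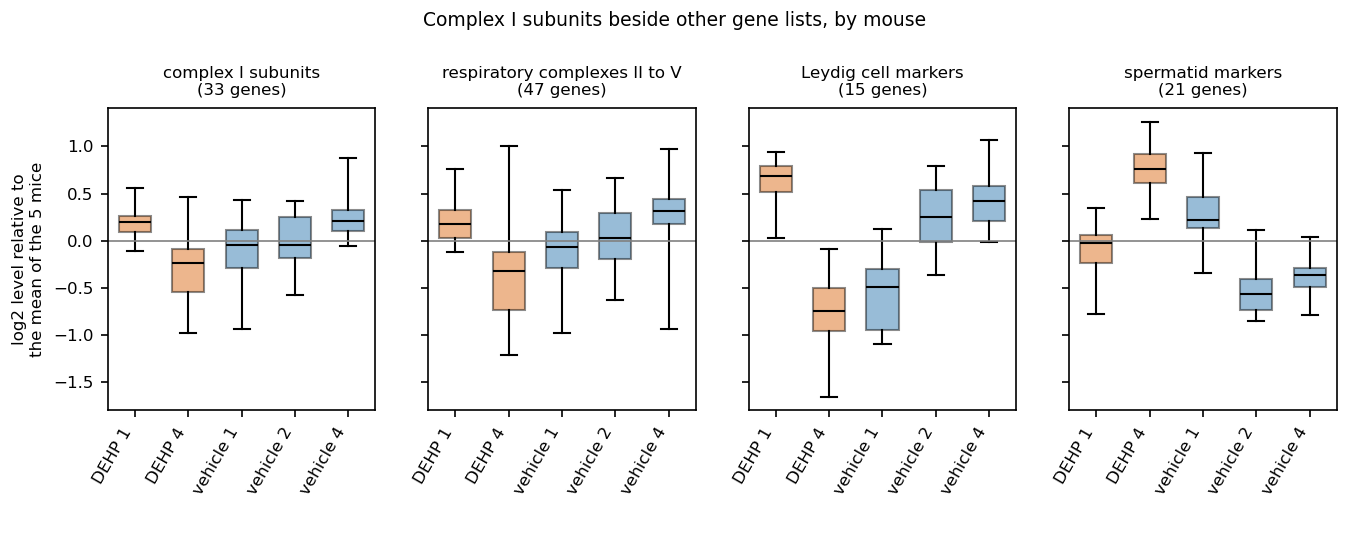
Log2 level after loess, set against the average over the 5 mice (vertical axis), of 33 complex I subunits, 47 genes of complexes II to V, 15 Leydig cell markers and 21 spermatid markers in each mouse; boxes are quartiles, whiskers the full range, orange DEHP and blue vehicle mice. The complex I median is 0.20 and −0.24 in DEHP mice 1 and 4, against −0.04, −0.05 and 0.21 in the vehicle mice; under median centring the order of the DEHP mice turns, to 0.16 in DEHP mouse 4 and −0.21 in DEHP mouse 1.

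The slides held different vehicle mice, so within-slide values were taken as a description. The median difference over the subunits was −0.0039 on slide 1 and −0.04 on slide 2, which hold vehicle mice 1 and 2 in 1 dye orientation each. On slide 3, which holds vehicle mouse 4 in both orientations, it was −0.28. Slide and vehicle mouse cannot be told apart.

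Promoters of 31 subunits were found in RefSeq (GRCm38.p6), in 33 windows that run from 250 bases before to 50 after the start. They were searched on both strands for short motifs of factors known to act on respiratory genes. The NRF1 motif GCGCANGCG was in 9 windows (27.3%), beside 6.25% of all 32851 windows of that length. These windows belong to 8 of the 31 subunits, since overlapping windows of Ndufa5 hold the same site. The YY1 motif AAGATGGCG was in 5 (15.2%, beside 1.4%), the ETS motif CCGGAAG in 4 (12.1%, beside 8.86%) and the ESRRA motif AAGGTCA in 3 (9.09%, beside 4.72%). Matches of different motifs did not overlap. A match is a description of the letters, not a bound site. Matches were not limited to subunits that were lower in DEHP mouse 4 under loess. Ndufa6 and Ndufb6, which were higher there, hold an NRF1 and an ETS match, and Ndufa5, which did not pass the test, holds an NRF1 match. The 120 bases before the start are shown for 3 subunits as examples of such matches, chosen after their values were seen, with matches in capitals. Ndufb4 (chr16:37654369-37654488, minus strand) holds NRF1 matches and an ESRRA match, Ndufs3 (chr2:90904722-90904841, minus strand) an ETS match, and Ndufs5 (chr4:123718187-123718306, minus strand) an NRF1 match.
Ndufb4: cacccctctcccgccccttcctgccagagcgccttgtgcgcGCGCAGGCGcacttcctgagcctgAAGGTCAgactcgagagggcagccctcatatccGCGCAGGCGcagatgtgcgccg
Ndufs3: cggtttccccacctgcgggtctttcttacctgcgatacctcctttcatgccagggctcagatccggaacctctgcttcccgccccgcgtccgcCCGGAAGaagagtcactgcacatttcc
Ndufs5: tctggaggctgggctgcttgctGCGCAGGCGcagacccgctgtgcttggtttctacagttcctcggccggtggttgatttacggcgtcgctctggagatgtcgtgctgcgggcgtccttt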

How the data were processed

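Per the file headers, the deposited scanner files were written by Feature Extraction 9.5.1.1 and hold, for each channel, spot intensity and local background, a processed intensity, a log10 ratio used to check directions, and 0 or 1 flags deposited as scores per spot. The authors' deposited value table holds log2 ratios of 13669 spots; its filter and centring are not given in the sources used here, and the submitters' processing notes name limma. Its row identifiers followed the row numbers of the scanner files: turned to DEHP over vehicle, columns correlated with the scanner ratios at r = 0.915 to 0.993 with slopes of 0.842 to 0.932, and medians ran from −0.0569 to 0.004.

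Each array was then treated in limma 3.58.1 (R 4.3.3): normexp (offset 50), loess with control spots at weight 0, outlier-marked spots (0.332% to 0.604% per array) left out, spots of a probe averaged. Least squares on the 12 log ratios of a probe gave 5 mouse levels and a dye effect. Probes entered the tests where, for 2 or more mice, they exceeded background (the scanner's flag) on 50% or more of that mouse's arrays (21197 probes), with the probe of highest mean intensity per gene. lmFit and eBayes ran on the mouse levels (3 residual degrees of freedom), and on 6 dye-swap averages for mice of a group (2), with Benjamini-Hochberg adjustment over all genes and a threshold of 0.05. The number of mice, 2 and 3, limits the precision between groups. The code was tested on simulated data. Members and lists were chosen with earlier results of these data known. Levels per mouse are given for core subunits, Ndufa4, non-overlapping members and the 3 widest differences between DEHP mice each way. Probe positions are on mm7.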

Additional observations from a re-analysis of the deposited data

How the results depend on the processing

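Between DEHP and vehicle mice, 0 genes were called in every setting run except the one that took the 12 arrays as independent, which called 2123 genes (13.4%) and 1 subunit, Ndufb4, at −0.53; that count treats repeated arrays of 5 mice as animals. At an unadjusted p under 0.05 the settings ran from 14 genes, with the mouse number as a replicate block, to 4922. No left-out mouse gave a call; with 1 DEHP mouse left, its spread is taken from the vehicle mice. The median over the subunits ran from −0.28 without DEHP mouse 1 to 0.12 without DEHP mouse 4, where 28 of 33 subunits were above 0. Under loess its direction thus rests on DEHP mouse 4, and mice were left out under loess only. Under median centring the median was −0.07. There the median level over the subunits was −0.21 in DEHP mouse 1 and 0.16 in DEHP mouse 4. Scaling reversed Ndufs4 (0.0026), Ndufc1 (0.072) and Ndufs5 (0.035) under median centring, Ndufc1 (0.051) as a mean over probes, and Ndufc1 (0.17) and Ndufb5 (−0.025) in the authors' deposited table, where 19 subunits have values. The cause was not tested. With a mouse left out, subunits that changed sign ran as follows: Ndufa1 −0.90 to 0.35, Ndufa11 −0.21 to 0.065, Ndufa12 −0.48 to 0.094, Ndufa2 −0.65 to 0.14, Ndufa3 −0.52 to 0.20, Ndufa4 −0.58 to 0.025, Ndufa5 −0.12 to 0.23, Ndufa8 −0.29 to 0.067, Ndufa9 −0.47 to 0.15, Ndufb10 −0.66 to 0.088, Ndufb2 −0.79 to 0.11, Ndufb3 −0.021 to 0.40, Ndufb4 −1.06 to 0.0036, Ndufb5 −0.22 to 0.25, Ndufb6 −0.042 to 0.25, Ndufb7 −0.58 to 0.33, Ndufb8 −1.20 to 0.12, Ndufb9 −1.07 to 0.27, Ndufc1 −0.15 to 0.0093, Ndufc2 −1.01 to 0.44, Ndufs1 −0.27 to 0.049, Ndufs3 −1.13 to 0.18, Ndufs4 −0.27 to 0.11, Ndufs5 −0.58 to 0.36, Ndufs6 −0.15 to 0.19, Ndufs7 −0.78 to 0.14, Ndufs8 −0.27 to 0.048 and Ndufv1 −0.28 to 0.045.

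The labels share mouse numbers 1 and 4 between groups but do not say that a number marks a shared litter or day. With the number as a replicate block, 0 genes were called and the median was −0.14, and Ndufv1 (0.045), Ndufs6 (−0.085), Ndufa5 (−0.12) and Ndufb5 (−0.091) changed sign. Deviations from the group means correlated over all genes at r = −0.73 for the mice numbered 1 and r = −0.56 for those numbered 4. The deviations of DEHP mice 1 and 4 mirror each other, so these values are not independent. With the numbers crossed, r was 0.73 for DEHP mouse 4 with vehicle mouse 1 and 0.56 for DEHP mouse 1 with vehicle mouse 4. The values therefore cannot decide whether a number marks a shared litter or day. The numbers were not taken to pair the mice, since the labels do not say that they do.

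Between vehicle mice 2 and 4, median centring called 33 subunits in place of 21. The other counts between mice of a group stayed within 1.5 times, while the direction changed as given above. A dye effect per slide could not be fitted, because on slides 1 and 2 it cannot be told apart from the difference between groups. Normalization alternatives for the order of mice and the gene lists were chosen after seeing the data. With 2 and 3 mice, differences below about 1 on the log2 scale were within the intervals of many subunits.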
